A study of Mus musculus with 2 samples.

Results

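The interferon-inducible GTPases are proteins of cell-autonomous defence that bind and hydrolyse GTP and are made in quantity after exposure to interferon. The 10 genes described here are Gbp2, Gbp3, Gbp4, Gbp5, Gbp7, Gbp8, Gbp9, Igtp, Irgm1 and Irgm2. They were taken by gene symbol from the 54751 gene rows of the deposited count table, and all 10 were found there.

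RNA-seq had been run on 2 libraries from wild-type mouse bone marrow cultured into myeloid-derived suppressor cells (MDSCs), an immature population that dampens T cell responses. The first group, mrWNT2, was 1 culture given mrWNT2, a preparation of the secreted signalling ligand WNT2, on day 0 and day 3. The second, Control, was 1 culture given vehicle on the same schedule, and both were collected on day 6. The dose, the vehicle, the cytokines that drove differentiation, and the strain, age and number of the mice are not given in the sources used here. The mrWNT2 library held 12621110 counts and the Control library 13474453. Because each group was a single library, nothing could be tested, no difference below has a replicate check, and each interval is an exact 95% binomial (Clopper-Pearson) or Poisson interval for counting error only, comparing libraries and not conditions. All 14 MDSC and myeloid marker genes followed were detected in both libraries, with a summed level of 45588 CPM (the count scaled to library size) in mrWNT2 and 51406 CPM in Control.

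Guanylate-binding proteins (GBPs) are large GTPases that assemble in coats on pathogen-containing vacuoles and on bacteria in the cytosol, where they help to break the membrane and to trigger inflammasomes. The IRGM proteins, encoded by Irgm1, Irgm2 and Igtp, belong to the immunity-related GTPases. They sit on the cell's own organelles, where they restrain the effector GTPases of that family. Transcription of both families is switched on mainly by interferon-gamma. Gamma-activated sequences and interferon-stimulated response elements are the DNA motifs through which interferon signals act on such genes, and IRF factors bind the second kind.

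RefSeq start-site windows (GRCm38.p6, 250 bases before to 50 after the annotated start) were found for 7 of the 10 genes, with 8 windows in all because Gbp3 has 2 annotated starts. Those of Gbp2, Gbp3 and Gbp5 are shown because these genes had the highest ratios, and that of Gbp7 because it lies in the same cluster with a ratio near 1. Those of Igtp and Irgm2 are shown because they resemble each other. The windows are chr3:142620413-142620712 for Gbp2, chr3:142559794-142560093 for the first start of Gbp3, chr3:142496684-142496983 for Gbp5 and chr3:142530086-142530385 for Gbp7, all on the plus strand. Those of Igtp and Irgm2 are chr11:58199306-58199605 and chr11:58214727-58215026, also on the plus strand. Capitals mark every match to the interferon-stimulated response element (searched as GAAANNGAAA), the gamma-activated sequence (TTCNNNGAA) or a kappa-B core (GGGANTTTCC), on either strand.
Gbp2: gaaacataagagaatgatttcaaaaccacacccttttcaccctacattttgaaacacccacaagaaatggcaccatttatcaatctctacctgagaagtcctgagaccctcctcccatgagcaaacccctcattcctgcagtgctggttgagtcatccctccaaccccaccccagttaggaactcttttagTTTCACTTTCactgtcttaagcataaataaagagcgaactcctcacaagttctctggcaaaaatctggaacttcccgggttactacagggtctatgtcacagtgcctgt
Gbp3: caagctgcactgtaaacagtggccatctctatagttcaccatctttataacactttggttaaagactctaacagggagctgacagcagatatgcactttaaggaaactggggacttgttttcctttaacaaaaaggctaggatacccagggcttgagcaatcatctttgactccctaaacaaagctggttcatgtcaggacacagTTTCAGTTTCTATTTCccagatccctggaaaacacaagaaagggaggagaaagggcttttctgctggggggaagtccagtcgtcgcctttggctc
Gbp5: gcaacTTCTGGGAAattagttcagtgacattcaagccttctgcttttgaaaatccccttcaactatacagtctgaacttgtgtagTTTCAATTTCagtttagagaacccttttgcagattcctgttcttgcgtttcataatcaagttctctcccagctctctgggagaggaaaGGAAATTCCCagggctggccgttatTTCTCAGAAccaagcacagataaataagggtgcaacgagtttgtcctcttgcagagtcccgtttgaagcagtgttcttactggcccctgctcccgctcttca
Gbp7: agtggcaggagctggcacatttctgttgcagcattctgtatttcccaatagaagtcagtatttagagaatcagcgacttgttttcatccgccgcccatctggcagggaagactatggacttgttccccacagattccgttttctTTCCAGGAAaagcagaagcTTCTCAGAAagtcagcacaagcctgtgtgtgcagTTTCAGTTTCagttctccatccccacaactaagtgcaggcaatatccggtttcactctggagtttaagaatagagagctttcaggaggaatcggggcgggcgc
Igtp: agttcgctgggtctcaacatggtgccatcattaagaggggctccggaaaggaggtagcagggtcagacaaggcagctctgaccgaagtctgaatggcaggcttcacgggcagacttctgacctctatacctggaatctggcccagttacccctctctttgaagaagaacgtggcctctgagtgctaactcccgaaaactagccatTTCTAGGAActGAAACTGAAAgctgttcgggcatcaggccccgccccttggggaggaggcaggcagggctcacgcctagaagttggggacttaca
Irgm2: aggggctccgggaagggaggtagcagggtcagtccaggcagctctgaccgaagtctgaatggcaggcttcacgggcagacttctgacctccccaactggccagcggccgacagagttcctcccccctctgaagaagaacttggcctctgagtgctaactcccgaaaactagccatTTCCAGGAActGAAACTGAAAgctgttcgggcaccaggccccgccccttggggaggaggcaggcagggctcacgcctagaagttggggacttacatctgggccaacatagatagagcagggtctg

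A match to the interferon-stimulated response element was present in 7 of the 8 windows, with at least 1 for each of the 7 genes, against 3.44% of the 32851 mouse windows of the same length. In Gbp2 the match lay 59 to 50 bases before the start, in Gbp7 53 to 44 bases and in Irgm2 64 to 55 bases. In Gbp5 it lay farther out, 165 to 156 bases before the start. Gbp3 and Irgm1 each had 2 matches that overlapped each other. The second Gbp3 window had no match to any of the 3 motifs. A gamma-activated sequence match was found in 4 of the 8 windows (Gbp5, Gbp7, Igtp and Irgm2), against 8.3% of all windows. The kappa-B core was found in Gbp5 alone, against 0.411% of all windows. The windows of Igtp and Irgm2 aligned over 270 columns with 244 identical bases, 90.4% of those columns. The RefSeq starts of Gbp2, Gbp3 (each start), Gbp5, Irgm1 and Irgm2 used here lie inside the gene bounds of the deposited table. For these genes, bases before the start can therefore be bases inside the deposited gene. A match is a description of these letters and not of a bound site.

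**Figure D1:**
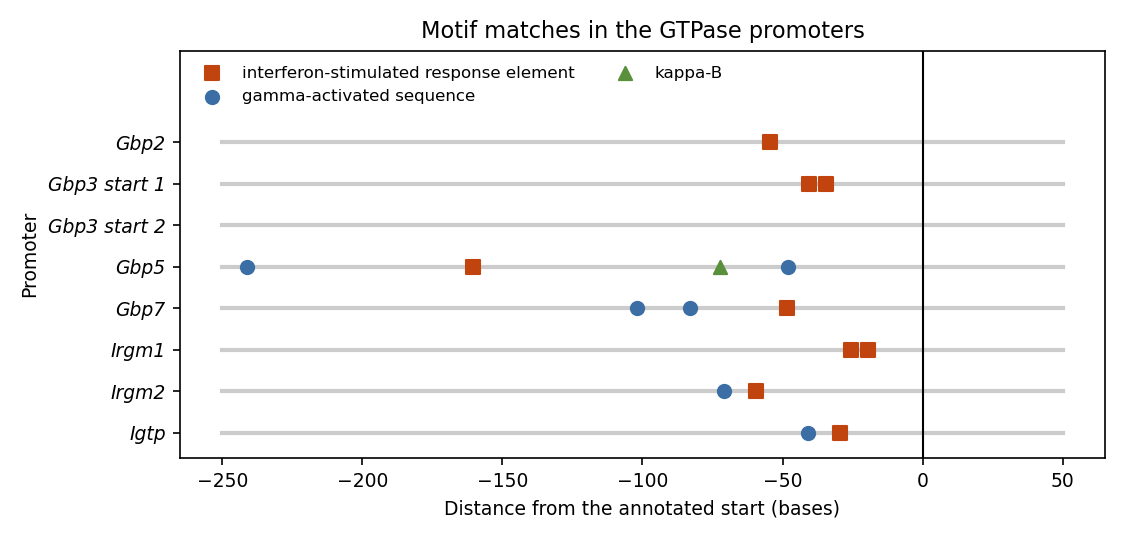
Positions of motif matches in the 8 start-site windows of 7 GTPase genes, with the distance from the annotated start in bases on the horizontal axis and 1 line per window. Squares are interferon-stimulated response element matches, circles gamma-activated sequence matches and the triangle a kappa-B match. The element matches lie within 64 bases of the start in every window that has one except that of Gbp5.

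The question was what WNT2 does to the transcripts of these cells as they form. The GTPase genes did not stand on 1 side of equality. Gbp2, Gbp3 and Gbp5 were 1.88-fold to 2.96-fold higher in mrWNT2, Gbp8 was 8.88-fold lower on few counts, and Gbp7, Irgm2, Igtp, Irgm1 and Gbp9 lay within 1.5-fold. Gbp4 was too weakly expressed to be measured. Of the 10 genes, 9 had a mean of at least 1 CPM over both libraries and were counted. Among them 3 were at least 1.5-fold higher in mrWNT2, against 7.62% of the 12856 genes measured, and 1 was at least 1.5-fold lower, against 7.02%. At 2-fold the counts were 2 higher (3.38% of all measured genes) and 1 lower (2.49%). The lower gene was Gbp8, with 0.236 CPM in mrWNT2 and 2.09 CPM in Control. It reached the minimum mean only through Control, the library where it was high, so its place in these counts depends partly on the minimum. The counted genes were of low to middling level, with means of 1.16 to 28.1 CPM, and low genes scatter more: of the 7306 genes between 1 and 30 CPM on average, 10.9% passed 1.5-fold upwards and 10.6% downwards. The median log2 ratio of the 9 genes was 0.04, beside 0.02 for all measured genes and 0.04 for those of 1 to 30 CPM.

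The 10 genes together had 1206 counts in mrWNT2 and 1121 in Control. On the CPM scale the sums were 94.8 (Poisson interval 89.6 to 100.3) in mrWNT2 and 83.8 (79.0 to 88.9) in Control. The ratio was 1.13 (1.04 to 1.23), a small difference beside those of single members. Gbp7 alone took 29.9% of the summed level in mrWNT2 and 33.2% in Control, and Irgm2 took 21.6% in mrWNT2 and 23.7% in Control.

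**Figure D2:**
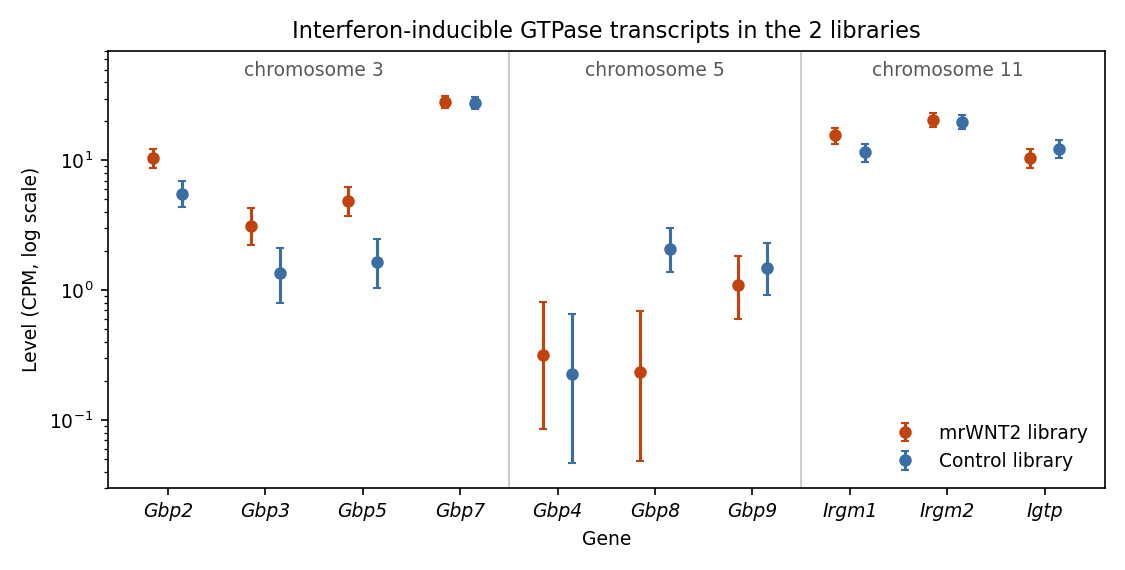
Level of each GTPase gene in CPM (log scale) in the mrWNT2 library (left point) and the Control library (right point), grouped by chromosome, with bars for the exact 95% Poisson interval of the single count. Gbp2, Gbp3 and Gbp5 stand higher in mrWNT2 with bars that do not overlap, Gbp8 stands lower, and Gbp7 and Irgm2 are level.

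The GBP genes of chromosome 3 lie in 1 cluster on the plus strand, in the order Gbp5, Gbp7, Gbp3, Gbp2. Gbp5 (ENSMUSG00000105504, 142493978 to 142522344, GRCm38) encodes a GBP known in macrophages for promoting NLRP3 inflammasome assembly. It had 62 counts in mrWNT2 and 22 in Control, which is 4.88 and 1.65 CPM. The ratio was 2.96 (1.8 to 5.06), and 1.56% of measured genes had a higher one (2.23% of those of 1 to 30 CPM). Gbp3 (ENSMUSG00000028268, 142560026 to 142573209) had 40 counts in mrWNT2 and 18 in Control, or 3.15 and 1.35 CPM. Its ratio of 2.34 (1.31 to 4.33) carried a wide interval because of these few counts. Gbp2 (ENSMUSG00000028270, 142620602 to 142638008) encodes a lipid-anchored GBP that is recruited to the vacuole of Toxoplasma. It had 132 counts in mrWNT2 and 74 in Control, or 10.4 and 5.53 CPM. Its ratio of 1.88 (1.40 to 2.53) had the narrowest interval of the 3, and its gain of 4.85 CPM was the largest among the 10 genes.

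Gbp7 (ENSMUSG00000040253, 142530342 to 142550149), which lies between Gbp5 and Gbp3, had nearly equal levels in the libraries. It encodes a GBP linked in mouse macrophages to assembly of the phagocyte NADPH oxidase. Of its exonic bases, 637 (11.3%) lie under the pseudogene Gm43802, and 12.7% of its 50-base words occur in transcripts of other genes. Gbp7 had 361 counts in mrWNT2 and 372 in Control, or 28.4 and 27.8 CPM. The ratio was 1.02 (0.880 to 1.18). Its interval did not overlap those of Gbp2, Gbp3 or Gbp5. These intervals cover counting error only, and the genes were set side by side after their ratios were seen. The share of such pairs over all measured genes was not computed, so the gap is not shown to be particular to the cluster. Summed over the 4 genes the cluster stood at 46.8 CPM (43.1 to 50.7) in mrWNT2 and 36.3 CPM (33.2 to 39.7) in Control, a ratio of 1.29 (1.14 to 1.45). Without Gbp7 the sum was 18.4 CPM (16.1 to 20.9) in mrWNT2 and 8.52 CPM (7.03 to 10.2) in Control, a ratio of 2.16 (1.72 to 2.72). That sum leaves out the gene with the ratio nearest 1, so its higher ratio follows from the choice. Its interval does not cover that choice. Gbp2b, a further GBP gene of the cluster, had 2 counts in mrWNT2 and 1 in Control.

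The GBP genes of chromosome 5, on the minus strand, were all weak. Gbp8 (ENSMUSG00000034438, 105014150 to 105139540) had 3 counts in mrWNT2 and 28 in Control, or 0.236 and 2.09 CPM. It was 8.88-fold lower in mrWNT2, with an interval of 2.74 to 45.6, and 0.0856% of measured genes had a lower ratio. Those 3 counts equal the floor used for a count of 0, which is about its 1-sided upper limit. Gbp8 reached the minimum mean of 1 CPM only through Control, and its rank among measured genes does not allow for that. Gbp9 (ENSMUSG00000029298, 105077630 to 105139539) had 14 counts in mrWNT2 and 20 in Control, or 1.10 and 1.5 CPM, and its ratio of 0.736 (0.344 to 1.53) was not distinguishable from 1 at this depth. Gbp4 (ENSMUSG00000079363, 105115767 to 105139586) had 4 counts in mrWNT2 and 3 in Control, and its ratio of 1.40 (0.237 to 9.57) is uninformative. Together the 3 genes had 21 counts in mrWNT2 and 51 in Control, a 2.31-fold lower sum in mrWNT2 (1.36 to 4.04). Gbp8 gave 28 of those 51 Control counts.

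The assignment of reads to these genes is uncertain, most of all for Gbp8. Each of the 3 gene models shares 60 or 61 exonic bases with the others. Of the 50-base words in Gbp8 transcripts, 18.1% also occur in transcripts of other genes, most often Gbp11. The same share was 8.05% for Gbp9 and 7.78% for Gbp4, and between 0.379% and 12.7% for the genes of the other chromosomes. The relatives at this locus that are not among the 10 genes, Gbp6, Gbp10 and Gbp11, had means below 1 CPM and were not measured. Their few counts were not lower in mrWNT2, unlike those of Gbp8. Gbp6 had 11 counts in mrWNT2 and 0 in Control. With that 0 set to the floor of 3 counts, Gbp6 was 3.86-fold higher in mrWNT2, a value that depends on the floor. The exact interval of its ratio starts at 2.64. Gbp11 had 14 counts in mrWNT2 and 11 in Control. With Gbp6, Gbp10 and Gbp11 added, a sum chosen after the values were seen, the locus had 46 counts in mrWNT2 and 62 in Control, 1.28-fold lower in mrWNT2 with an interval of 0.861 to 1.92 that includes 1. Whether reads were split between these copies was not tested.

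**Figure D3:**
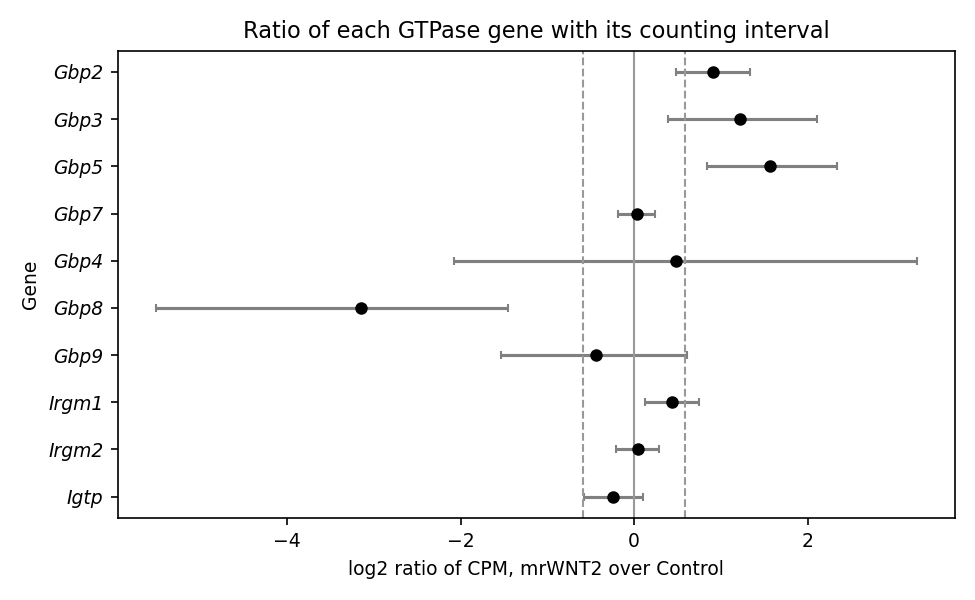
Log2 ratio of mrWNT2 over Control for each GTPase gene, with bars for the exact 95% binomial interval of the pair of counts, a solid line at equal levels and dashed lines at 1.5-fold. The intervals of Gbp2, Gbp3, Gbp5 and Irgm1 lie above equality, that of Gbp8 lies below it, and the other 5 include it.

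The IRGM genes of chromosome 11 were close to equal in the libraries. Irgm1 (ENSMUSG00000046879, 48861968 to 48871683, minus strand) encodes a regulator of mitochondria and lysosomes whose loss in mice upsets blood stem cells and macrophages. It had 198 counts in mrWNT2 and 154 in Control, or 15.6 and 11.5 CPM. The ratio was 1.35 (1.09 to 1.68), below the 1.5-fold rule, with an interval above 1. Irgm2 (ENSMUSG00000069874, 58199618 to 58222782, plus strand) encodes a Golgi-associated member that restrains caspase-11 responses. It had 260 counts in mrWNT2 and 266 in Control, or 20.4 and 19.9 CPM, a ratio of 1.03 (0.863 to 1.22). Igtp (ENSMUSG00000078853, 58199556 to 58207591, plus strand) encodes the member found at the endoplasmic reticulum and lipid droplets. It had 132 counts in mrWNT2 and 164 in Control, or 10.4 and 12.3 CPM, a 1.18-fold lower level in mrWNT2 with an interval of 0.934 to 1.5 that includes 1.

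In the deposited table Igtp and Irgm2 start at nearly the same base, and their models share 162 exonic bases, 8.01% of Igtp exons and 4.39% of Irgm2 exons. Their sum does not depend on how counted reads were divided between them, but it leaves out any reads counted to neither gene. It was 392 counts in mrWNT2 and 430 in Control, a ratio of 0.959 (0.834 to 1.10). Of the 50-base words, 11.8% in Igtp and 7.83% in Irgm2 occur in transcripts of other genes. Irgm1 shared no exonic base with another gene, and 0.379% of its 50-base words occurred elsewhere. The ratio intervals of Irgm1 and Igtp did not overlap, while that of Irgm2 overlapped both. Summed over the 3 genes, the IRGM level was 46.4 CPM (42.7 to 50.3) in mrWNT2 and 43.7 CPM (40.2 to 47.4) in Control, a ratio of 1.06 (0.946 to 1.19). The sum over the 7 GBP genes was 48.4 CPM (44.7 to 52.4) in mrWNT2 and 40.2 CPM (36.8 to 43.7) in Control, a ratio of 1.21 (1.07 to 1.36).

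Over the 9 counted genes, 4 ratio intervals lay above 1, against 21% of all measured genes, and 1 lay below 1, against 18.8%. Those shares cover genes of every level and are not matched to the low levels of the 9. Counting intervals are narrower for genes with more counts. The interval below 1 was that of Gbp8, which was counted only through its Control level. Of the 36 pairs among the 9, 19 had ratio intervals that did not overlap. Gbp8, with 3 counts in mrWNT2, took part in 7 of these pairs, and Gbp5 in 6. The share over pairs of all measured genes was not computed, so these counts do not show a spread particular to the GTPase genes.

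**Figure D4:**
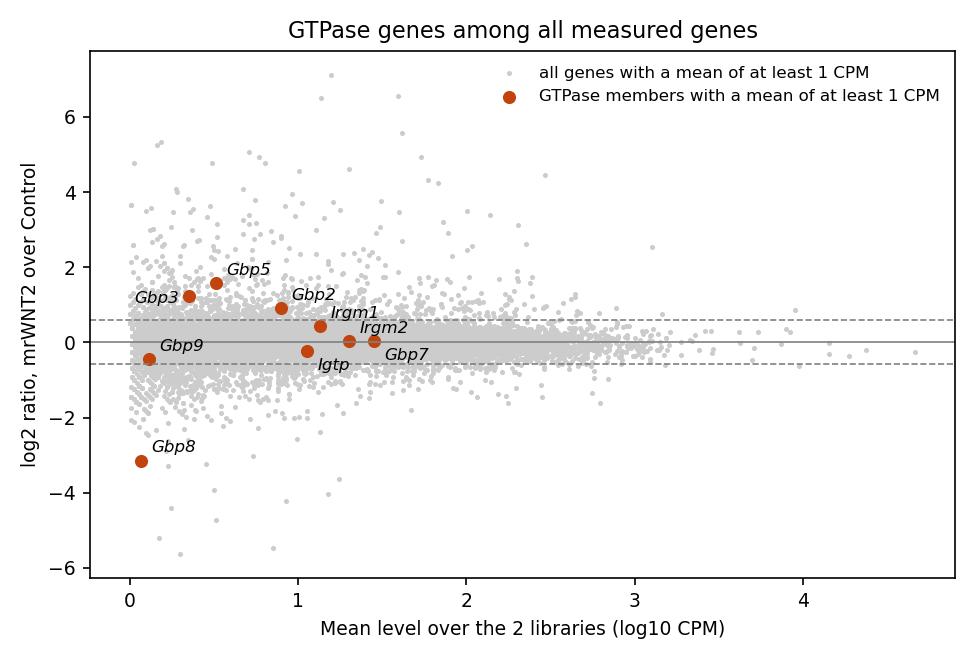
Log2 ratio of mrWNT2 over Control against the mean level over both libraries (log10 CPM) for all 12856 measured genes (mean of 1 CPM or more, grey) and for the 9 counted GTPase genes (red, named), with dashed lines at 1.5-fold. Gbp2, Gbp3 and Gbp5 lie above the upper line and Gbp8 below the lower one, and the scatter of all genes widens at low levels.

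Levels of different genes were compared in FPKM, the authors' deposited fragment level per length of gene and library size. In mrWNT2 the order was Irgm2 at 5.48 FPKM, Igtp at 5.07, Gbp7 at 5.00 and Gbp2 at 4.08, and each of these neighbours overlapped in its Poisson interval. Irgm1 followed at 2.65 FPKM, then Gbp3 at 0.952 and Gbp5 at 0.726, and then Gbp9, Gbp8 and Gbp4 at 0.210, 0.0677 and 0.0415 FPKM. In Control the order was Igtp at 6.14 FPKM, Irgm2 at 5.45 and Gbp7 at 5.01, whose neighbouring intervals overlapped. Gbp2 at 2.23 FPKM and Irgm1 at 2.01 came next and overlapped each other. Gbp8 at 0.615 FPKM, Gbp3 at 0.417, Gbp9 at 0.292 and Gbp5 at 0.251 were below them, and Gbp4 was lowest at 0.0303. In FPKM, Gbp2 thus stood beside Gbp7 in mrWNT2 and beside Irgm1 in Control. Gbp5 was above Gbp8 in mrWNT2 and below it in Control. Among measured genes, the FPKM of Igtp was at percentile 47.1 in mrWNT2 and 52.5 in Control, while that of Gbp5 was at percentile 10.4 in mrWNT2 and 2.29 in Control.

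Most of the other genes listed as relatives of these GTPases were barely expressed. Whether each of them answers to interferon was not tested. Of 16 listed relatives, 5 had a mean of at least 1 CPM. Of these 5, 0 were at least 1.5-fold higher in mrWNT2 (7.62% of all measured genes), 3 lower (7.02%) and 2 between. Their median log2 ratio was -0.72, which is the value of Irgc1 alone. The lower ones were Gm4951 (6 counts in mrWNT2 and 23 in Control), Mx1, which encodes a dynamin-like antiviral GTPase (7 and 20 counts), and Irgc1 (53 and 92 counts). Gvin1, a very large inducible GTPase gene, was 1.48-fold lower (1.12 to 1.96) and Irgq 1.05-fold lower (0.878 to 1.25). Below that minimum, Gm12250 had 5 counts in mrWNT2 and 14 in Control, and F830016B08Rik had 7 in mrWNT2 and 17 in Control, with ratio intervals that include 1. Iigp1, Tgtp1 and Tgtp2, effector genes of the IRG family, had 1, 0 and 5 counts in mrWNT2 and 0, 1 and 4 in Control. Ifi47, another IRG gene, looked up after the values were seen, had 124 counts in mrWNT2 and 113 in Control.

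The inducing cytokines were all but undetected beside these GTPase transcripts. Of 21 interferon genes, 20 had 0 counts in both libraries, interferon-gamma (Ifng) among them, which at the floor of 3 counts allows up to 0.236 CPM in mrWNT2 and 0.224 CPM in Control. The exception was Ifnb1, with 1 count in mrWNT2 and 0 in Control. All 6 receptor genes were within 1.5-fold: Ifngr1 was 1.24-fold lower in mrWNT2 (1.17 to 1.31), and Ifngr2, Ifnar1 and Ifnar2 were 1.24-fold, 1.26-fold and 1.12-fold higher. Of 14 measured signal transducers, 0 were at least 1.5-fold higher (7.62% of all measured genes) and 1 was lower (7.02%), Irf8 (1.60-fold). Stat2 was 1.01-fold lower (0.906 to 1.13), Irf9 1.10-fold lower (0.940 to 1.29) and Irf1 1.16-fold lower (1.03 to 1.30). Of 8 feedback inhibitors 1 was higher, Socs3 at 2.71-fold (2.48 to 2.96). The median log2 ratios were 0.27 for the receptors, -0.05 for the transducers and 0.03 for the inhibitors.

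Other genes induced by interferon also went both ways. The counts per list stand beside 7.62% of all measured genes at least 1.5-fold higher and 7.02% lower. For genes of 1 to 30 CPM these shares were 10.9% and 10.6%. A spread particular to interferon genes was not tested. Of 20 measured type I interferon-stimulated genes, 3 were at least 1.5-fold higher in mrWNT2 (Lgals3bp, Oas1a and Bst2, 1.91-fold to 2.45-fold), 1 was lower (Cmpk2, 1.70-fold) and 16 lay between, with a median log2 ratio of 0.13. Of 20 measured genes induced by interferon-gamma, 4 were higher (Acod1, Nos2, Serpina3g and Cxcl10, 2.80-fold to 11.2-fold), 5 lower (Ciita, Cd74, H2-Aa, Fcgr1 and Il18bp, 1.68-fold to 2.43-fold) and 11 between, with a median of 0.02. Among the cellular partners of the GTPases, all 19 vacuole-targeting and autophagy genes were within 1.5-fold (median log2 ratio -0.004). Of 16 inflammasome and cell death genes 3 were higher, namely Il1b, Mefv and Casp4, which encodes caspase-11 and was 1.54-fold higher (1.35 to 1.76), and the list's median log2 ratio was 0.20. Of 9 prenylation genes, whose enzymes and substrates supply the lipid anchor of some GBPs, 1 was lower, Fdps at 1.58-fold (1.40 to 1.79), with a median of 0.11.

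**Figure D5:**
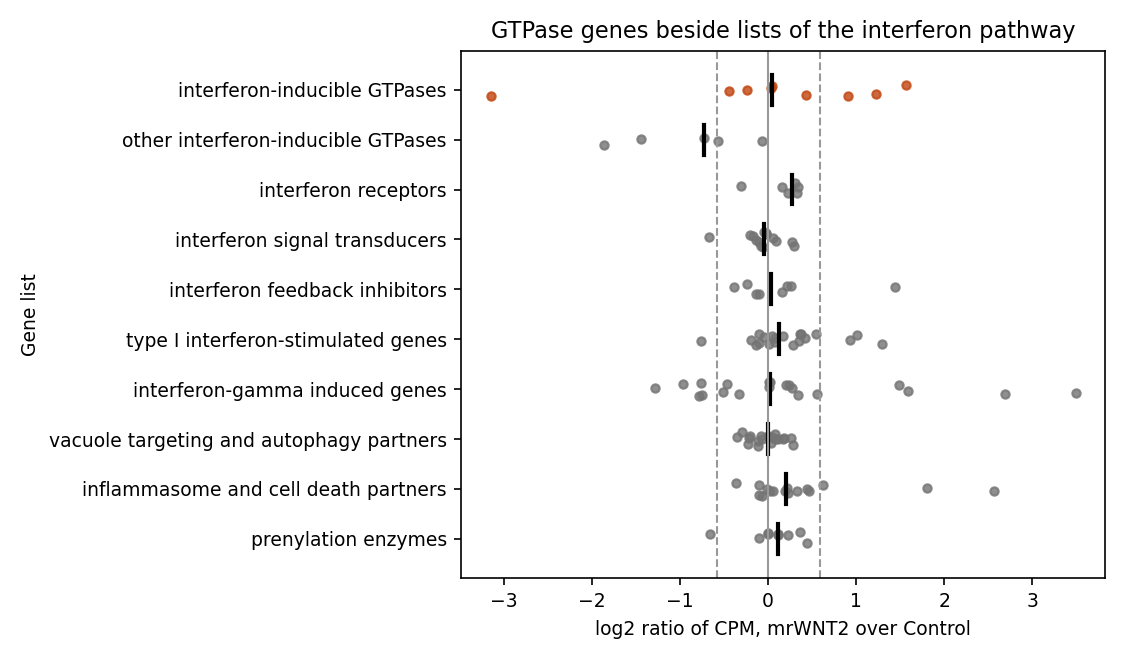
Log2 ratio of mrWNT2 over Control for the measured genes of each list (1 point per gene, vertical position spread within a row for legibility, black bar at the median, dashed lines at 1.5-fold). The 9 GTPase genes (red) spread on both sides of equality with a median of 0.04, and the 14 signal transducers have a median of -0.05.

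Markers of cells that make or answer to interferon were followed beside the GTPase genes. Of 18 T, NK and innate lymphoid markers, 2 were measured (Nkg7 and Gzmb). The summed level of all 18 was 23.9 CPM in mrWNT2 and 25.0 CPM in Control, most of it from Nkg7 (20.7 and 20.2 CPM). Of the 18 markers, 4 (Ifng, Gzma, Ncr1 and Eomes) had 0 counts in both. Of 8 plasmacytoid dendritic cell markers 3 were measured, and the 8 had a summed level of 46.3 CPM in mrWNT2 and 33.9 CPM in Control. The measured ones were Bst2 (18.7 CPM in mrWNT2 and 9.80 in Control), Tcf4 (14.3 and 13.7) and Irf7 (12.7 and 10.3). Bst2 was also listed as a type I interferon-stimulated gene and Irf7 as a signal transducer, so the sum is not particular to these cells. Siglech, Ly6d and Klk1 had 0 counts in both libraries. Of the 14 myeloid markers 3 were at least 1.5-fold higher in mrWNT2 (Nos2 at 6.47-fold, Csf1r at 2.37-fold and Adgre1 at 1.8-fold), against 7.62% of all measured genes. A further 2 were lower (Arg1 at 2.70-fold and Ly6g at 2.0-fold), against 7.02%, and 9 lay between. Some myeloid markers thus differed between the libraries alongside the GTPase genes. Their part in the GTPase ratios was not tested, and more cells of a type cannot be told apart from more RNA per cell in bulk libraries.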

How the data were processed

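Per the labels' protocols, RNA came from a TRIzol extraction and went into NEBNext Ultra libraries. CASAVA 1.8, fastp, HISAT2 2.0.5, featureCounts 1.5.0-p3, DESeq2 1.20.0 and the GRCm38 (mm10) build are named in the submitters' processing notes. The strand setting of the counting is not stated in these sources. The authors deposited raw counts per gene and FPKM, each with 1 column per library. The log2 ratios from the deposited FPKM differed by at most 1.2e-08 from those of the counts scaled by DESeq2 size factors, over 10078 genes.

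From the counts, TMM factors (1.01 for mrWNT2 and 0.992 for Control, edgeR 4.0.16, R 4.3.3) gave CPM and ratios without a pseudocount. Intervals were computed with SciPy 1.17.1 and tested on simulated counts. They cover counting error only, since each group was 1 library. Reads carry no molecular identifiers, so copies of 1 molecule could not be told apart and the intervals may be too narrow. With 1 library per group no test was run. Genes averaging 1 CPM or more were counted as higher or lower at 1.5-fold, and a count of 0 was set to 3 where the other count was above 3.

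Gene models and transcripts came from GENCODE M21 (GRCm38), whose ends equal the deposited ones for all 10 genes. Start-site windows came from RefSeq. Named beyond the 10 genes were listed relatives with at least 10 counts in either library, up to 5 genes of each list by size of ratio, and preset pathway genes, 1 of which is not reported here. Iigp1, Tgtp1, Tgtp2, Gbp2b, Ifnb1, Ifi47 and markers were named after their values were seen. The genes and lists were chosen with earlier results of these data known.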

Additional observations from a re-analysis of the deposited data

How the results depend on the processing

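Of 77 recomputed values, 71 stayed within their counting interval or within 1.5 times the count. No ratio past 1.5-fold changed sign. Most of these checks could hardly fail. A change of scaling shifts every log2 ratio by the same small amount, as for Gbp2 at 0.87 to 0.93. For single genes the deposited FPKM repeated the values from DESeq2 size factors. The number of genes at least 1.5-fold higher was 1 on the log2(FPKM + 1) scale, which shrinks low genes, and the ratios of Gbp5 and Gbp8 were 0.46 and -0.60 there. With a mean of at least 10 CPM required, 0 were higher and 0 lower, because 4 of the 10 genes remained. The median log2 ratio was 0.24 with no expression minimum, when Gbp4 enters. The chromosome 5 sum, with a log2 ratio of -1.21, was -0.36 with Gbp6, Gbp10 and Gbp11 added. Across scalings and the deposited FPKM, the summed level of all 10 genes had a log2 ratio of 0.11 to 0.20. Gbp7 was at 0.03 and at -0.004 with DESeq2 size factors. No paired analysis was possible because each group had 1 library, and for the same reason no library could be left out. Depth limits Gbp4, Gbp8 and Gbp9, each with under 30 counts per library.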
